A study of Arabidopsis thaliana with 36 samples.

Results

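The 9 genes described here belong to the sulfur economy of Arabidopsis thaliana leaves and are SDI1 (AT5G48850), SDI2 (AT1G04770), LSU1 (AT3G49580), LSU2 (AT5G24660), GGCT2;1 (AT5G26220), BGLU28 (AT2G44460), APR1 (AT4G04610), APR2 (AT1G62180) and APR3 (AT4G21990). They were taken by locus code, 9 of the 28774 codes counted. The rule itself used no measured value, but the genes were chosen with earlier results of these data known. The 36 RNA-sequencing libraries came from leaves 9 to 12 of plants grown on soil for 5 weeks with 8 h of light and 16 h of dark a day. The plants were of 3 genotypes, the Columbia wild type (WT, stock CS60000) and the mutants ivd1-2 and hml1-2, whose affected genes act in the mitochondrial breakdown of branched-chain amino acids, IVD encoding isovaleryl-CoA dehydrogenase and HML1 hydroxymethylglutaryl-CoA lyase. Each genotype was sampled at 0 h, after 6, 24, 48 and 72 h of prolonged darkness, and after a further 72 h of the 8 h day, here called the day and night control, with 2 libraries in each of the 18 groups. The labels give neither the kind of mutation, the hour of sampling nor whether the 2 libraries of a group came from separate plants, so a p-value reflects only how far such libraries spread, which may be technical. The 6 h group stands apart in hours from the others, which by the labels are whole days from 0 h, so for it the hour of the day and the dark treatment cannot be told apart.

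Plants take sulfate up through SULTR transporters and activate it with ATP sulfurylase (ATPS) to adenosine 5'-phosphosulfate. In the plastid the APR enzymes reduce this compound to sulfite, the step at which flux into cysteine is largely set, and sulfite reductase (SIR) then makes sulfide, which is joined to O-acetylserine to give cysteine. The SDI, LSU, GGCT2;1 and BGLU28 genes are known for rising when sulfur runs short. SDI1 and SDI2 repress the making of aliphatic glucosinolates, GGCT2;1 breaks down glutathione, BGLU28 is a beta-glucosidase that breaks down glucosinolates, and the LSU genes encode small proteins that bind other proteins.

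The promoters of 6 of the genes are shown. Those of SDI1 and GGCT2;1 hold the sulfur response core, and those of SDI2, APR1, APR2 and APR3 do not. Each is the 300 bases before the annotated start in RefSeq's TAIR10.1 assembly, read on the gene's own strand, and capitals mark GAGAC (the core of the sulfur response element, GTCTC on the other strand) or the evening element AAATATCT (AGATATTT on the other strand). The windows are chr5:19807854-19808153 for SDI1, chr1:1337850-1338149 for SDI2, chr5:9164885-9165184 for GGCT2;1, chr4:2324578-2324877 for APR1, chr1:22977886-22978185 for APR2 and chr4:11659168-11659467 for APR3. APR1 lies on the plus strand and the other 5 on the minus strand.
SDI1: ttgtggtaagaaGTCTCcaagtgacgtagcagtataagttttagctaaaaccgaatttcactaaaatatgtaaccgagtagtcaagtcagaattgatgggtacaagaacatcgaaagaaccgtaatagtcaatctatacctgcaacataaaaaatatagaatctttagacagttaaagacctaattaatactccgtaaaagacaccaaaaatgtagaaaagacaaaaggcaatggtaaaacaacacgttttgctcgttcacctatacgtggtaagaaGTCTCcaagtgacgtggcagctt
SDI2: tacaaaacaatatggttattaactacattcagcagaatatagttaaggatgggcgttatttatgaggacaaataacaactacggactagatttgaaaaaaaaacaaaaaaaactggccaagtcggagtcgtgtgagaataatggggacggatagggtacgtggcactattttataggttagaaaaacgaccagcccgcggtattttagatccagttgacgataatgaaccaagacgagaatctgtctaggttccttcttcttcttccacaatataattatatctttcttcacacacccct
GGCT2;1: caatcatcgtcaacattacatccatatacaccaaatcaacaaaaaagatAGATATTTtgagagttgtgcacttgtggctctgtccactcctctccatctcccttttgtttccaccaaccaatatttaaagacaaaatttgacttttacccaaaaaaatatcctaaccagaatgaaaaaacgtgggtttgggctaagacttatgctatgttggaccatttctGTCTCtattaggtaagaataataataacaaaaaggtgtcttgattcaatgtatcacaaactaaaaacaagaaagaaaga
APR1: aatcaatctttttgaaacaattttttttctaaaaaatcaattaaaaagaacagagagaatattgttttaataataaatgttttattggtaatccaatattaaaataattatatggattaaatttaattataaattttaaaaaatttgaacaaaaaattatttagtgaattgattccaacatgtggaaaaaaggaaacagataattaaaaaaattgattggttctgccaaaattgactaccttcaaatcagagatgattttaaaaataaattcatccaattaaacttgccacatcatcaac
APR2: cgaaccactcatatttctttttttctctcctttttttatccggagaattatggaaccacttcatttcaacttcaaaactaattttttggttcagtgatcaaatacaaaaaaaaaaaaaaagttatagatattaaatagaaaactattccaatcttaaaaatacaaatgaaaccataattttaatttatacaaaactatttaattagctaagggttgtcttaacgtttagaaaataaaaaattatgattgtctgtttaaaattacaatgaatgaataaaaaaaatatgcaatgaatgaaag
APR3: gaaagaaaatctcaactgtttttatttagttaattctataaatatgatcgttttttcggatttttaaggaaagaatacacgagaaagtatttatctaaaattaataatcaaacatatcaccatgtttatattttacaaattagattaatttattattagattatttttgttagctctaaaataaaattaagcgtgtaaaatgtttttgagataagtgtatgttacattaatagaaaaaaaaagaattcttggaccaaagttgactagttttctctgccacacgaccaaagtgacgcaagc
SDI1 carries GAGAC at 2 places, starting 288 and 23 bases before its start, and both lie in a stretch of 25 bases that occurs 2 times in the window, gtggtaagaaGTCTCcaagtgacgt. A repeat of that length or longer stood in 0.878% of the 27443 promoters of protein-coding genes, and no longest repeat of the other 8 genes exceeded 12 bases. On either strand GAGAC was found in 3 of the 9 promoters, those of SDI1, GGCT2;1 and BGLU28, against 29.97% of all promoters. The G-box CACGTG was in 0 of the 9 against 7.09%, the evening element in GGCT2;1 alone against 5.64%, and the abscisate coupling element ACACNNG in BGLU28 and APR3 against 26.7%. These matches describe letters in the windows and are not measured binding sites.

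The libraries held 13638597 to 49398596 counts assigned to genes. IVD stood at 141.2 to 453.5 CPM (counts scaled to equal library size) in the 8 dark ivd1-2 libraries against 990.8 to 2091 in the 8 dark WT libraries, and averaged over conditions it was lower in ivd1-2 by a log2 change of -2.49 ± 0.14 (SE, edgeR's quasi-likelihood test, adjusted p = 2.5e-10). HML1 ran from 46.4 to 68.5 CPM in the 12 hml1-2 libraries and from 77.9 to 132.8 in WT, with a log2 change of -0.76 ± 0.06 (adjusted p = 4.0e-07), so the transcript was lower in hml1-2 and still counted in every library. Of the leaf markers RCA, RBCS1A, CA1 and LHCB3, summed levels were 32046 to 51802 CPM at 0 h and in the day and night control and 483.7 to 19488 CPM in darkness. Of the root markers, CASP2 ran from 0.0636 to 0.598 CPM at 0 h and in the control and from 3.41 to 60.6 CPM in darkness, while CASP1 and PER64 did not exceed 0.099 CPM in any library. Of 5 flower markers the sum ran from 0.0776 to 0.989 CPM at 0 h and in the control and from 0.799 to 14.9 CPM in darkness, with PI at up to 14.6 CPM. Guard cell markers (4 genes) summed to 65.6 to 95.6 CPM at 0 h and in the control and 13.5 to 55.6 CPM in darkness, and epidermis markers (4 genes) to 645.9 to 1398 and 264.5 to 806.0 CPM. Phloem markers (4 genes) reached higher sums in darkness, at 313.4 to 865.0 CPM at 0 h and in the control and 381.7 to 1195 CPM in darkness. The part of these markers in the results was not tested. In bulk leaf RNA, fewer cells of a type and less RNA per cell cannot be told apart.

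One library stood apart. Replicate 1 of ivd1-2 at 72 h of darkness had a summed level of 13 salicylate defence genes of 2931 CPM, against 43.1 CPM in replicate 2, and the Pearson correlation of this pair across genes, 0.884, was the lowest of the 18 groups. Results that rest on this library are given with and without it. Salicylate sums also differed between replicates in other groups, for example 1735 and 81.0 CPM in hml1-2 at 0 h, so a high sum by itself was not confined to darkness.

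Compared per kilobase of transcript, APR2 was by far the most abundant of the 9 transcripts in WT at 0 h, with 228 ± 18 CPM per kb (SD, n = 2), followed by APR3 with 28.8 ± 8.8 and APR1 with 22.5 ± 8.8. LSU2 and SDI2 stood at 12.7 ± 1.3 and 11.9 ± 0.8 CPM per kb. SDI1 reached 0.993 ± 0.403, GGCT2;1 0.305 ± 0.236, LSU1 0.270 ± 0.381 and BGLU28 0.0148 ± 0.0210 CPM per kb. The sulfur deficiency genes other than SDI2 and LSU2 were therefore counted with few reads. BGLU28 had 11 counts in all 36 libraries together, 7 in WT libraries and 4 in ivd1-2, and was not tested. LSU1 had 78 counts, GGCT2;1 212 and SDI1 374, and 8 of the 9 genes passed the filter on low counts. Of the other genes, SDI2 shares 352 exonic bases with AT1G04760 and APR2 950 with AT1G62170 and AT1G08477, all on the opposite strand. AT1G04760 and AT1G62170 had at most 7 and 2 counts in a library, and counts of AT1G08477 were not examined. APR1 and APR3 share 21 and 27 bases with the opposite-strand genes AT4G04614 (222 to 807 counts) and AT4G21980 (254 to 7481 counts). The sources used here do not say whether counting used the strand.

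**Figure D1:**
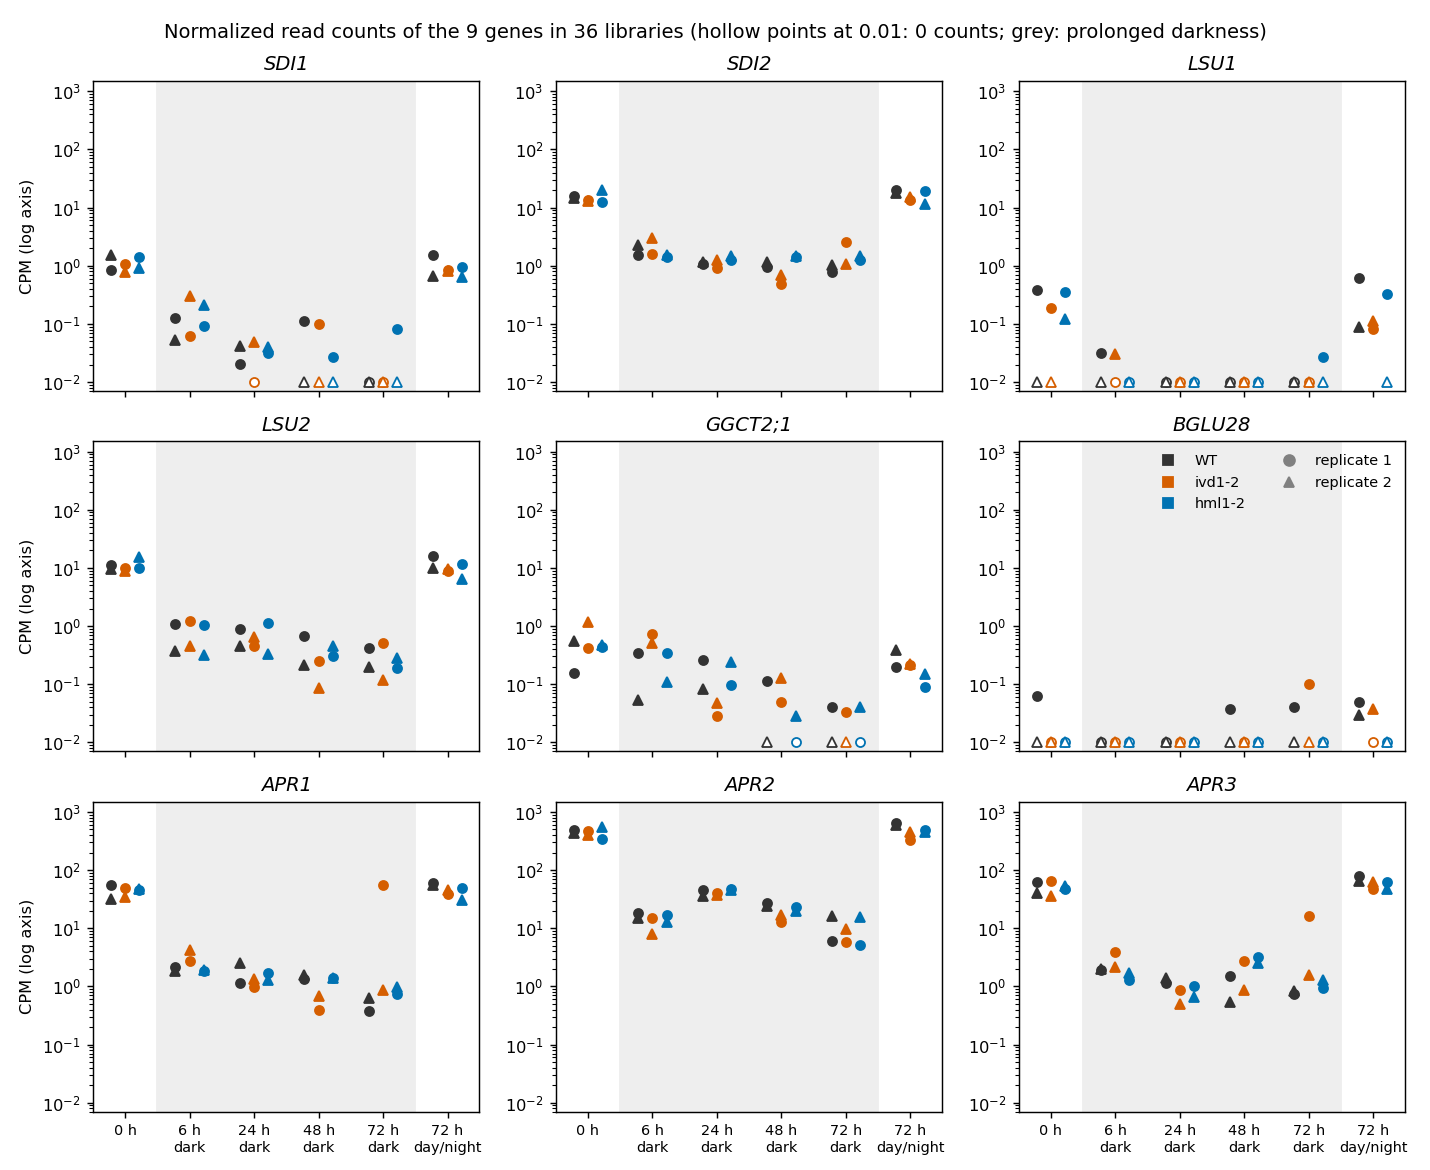
CPM (log axis) of the 9 genes in every library by condition, with colour for genotype, circles and triangles for replicates 1 and 2, and hollow points at 0.01 for 0 counts. SDI1, SDI2, LSU2, APR2 and APR3 have no dark library that reaches the lowest library of 0 h or the day and night control. Replicate 1 of ivd1-2 at 72 h of darkness lies at 55.7 CPM in APR1 and at 16.1 CPM in APR3.

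The sulfate reduction genes were lower in WT after 6 h of prolonged darkness. APR2, the most abundant of the 3 here, was at 493.8 and 442.1 CPM at 0 h and at 18.4 and 14.8 CPM after 6 h. APR1 went from 55.5 and 31.5 to 2.12 and 1.81 CPM, and APR3 from 62.5 and 40.3 to 1.90 and 2.02 CPM. In none of the 3 did the groups overlap. The log2 changes were -4.82 ± 0.48 for APR2 (SE, edgeR's quasi-likelihood test, adjusted p = 9.7e-08), -4.46 ± 0.93 for APR1 (adjusted p = 0.00061) and -4.71 ± 0.72 for APR3 (adjusted p = 2.1e-05).

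The better counted sulfur deficiency genes fell with them. SDI2 was at 16.0 and 14.6 CPM in WT at 0 h and at 1.55 and 2.29 CPM after 6 h of darkness, a log2 change of -3.004 ± 0.36 (adjusted p = 1.3e-06). LSU2 was at 11.2 and 9.70 CPM and then at 1.08 and 0.373 CPM, a log2 change of -3.79 ± 0.71 (adjusted p = 0.00021). SDI1 was at 0.859 and 1.55 CPM and then at 0.127 and 0.0533 CPM, a log2 change of -3.57 ± 0.97 (adjusted p = 0.0063), and its call was lost without replicate 2 of the 6 h group (adjusted p = 0.063). GGCT2;1, at 0.159 and 0.543 CPM at 0 h and 0.348 and 0.0533 CPM after 6 h, overlapped between the groups and did not pass, and LSU1, with 12 counts at 0 h and 1 count after 6 h, did not pass either (a ratio of 13.6 with a 95% counting interval of 2.02 to 583). Thus 6 of the 8 genes tested fell in this comparison, in which 19.2% of all 19457 genes tested fell, and their median log2 change was -3.68 beside -0.07 over all genes.

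The fall lasted through 72 h of darkness. Against 0 h, 6 of the 8 genes had fallen in WT after 24 and 48 h and 7 after 72 h, where 25.7, 29.5 and 32.2% of all genes tested fell. At 72 h the levels were 6.15 and 16.1 CPM for APR2, 0.371 and 0.628 CPM for APR1, 0.742 and 0.825 CPM for APR3, 0.784 and 1.02 CPM for SDI2, and 0.412 and 0.196 CPM for LSU2. SDI1 and LSU1 had 0 counts in both WT libraries at 72 h, so that SDI1 was at least 17.6-fold higher and LSU1 at least 4.49-fold higher at 0 h, with 3 counts taken as the limit for a group at 0. GGCT2;1 joined the falling genes at 72 h (log2 change -3.72 ± 1.33, adjusted p = 0.019), with 1 count against 12, and its call was lost when replicate 2 of either group was left out (adjusted p = 0.13 in each case). The median log2 change of the 8 genes at 72 h was -5.57, or -4.61 with SDI1 and LSU1 at their bounds, beside -0.07 over all genes.

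Plants kept for the same 72 h in day and night cycles did not show these falls. In WT the control libraries held 657.5 and 601.5 CPM of APR2, 59.3 and 54.9 CPM of APR1, 77.8 and 64.1 CPM of APR3, 19.7 and 17.6 CPM of SDI2, and 16.3 and 9.96 CPM of LSU2. Between the control and 0 h, edgeR called 0 of the 8 genes in each genotype, where it called 0% of all genes, with 0 of the 8 at an unadjusted p under 0.05 and 0 called by DESeq2's test. Against the control, all 8 genes tested had fallen in WT at 72 h of darkness, where 31.7% of all genes fell. The log2 changes were -5.82 ± 0.50 for APR2 (adjusted p = 3.0e-09), -6.82 ± 1.07 for APR1 (adjusted p = 1.2e-05), -6.49 ± 0.79 for APR3 (adjusted p = 4.4e-07), -4.36 ± 0.39 for SDI2 (adjusted p = 5.3e-09) and -5.41 ± 0.78 for LSU2 (adjusted p = 4.1e-06). SDI1, with 82 counts in the control and 0 in darkness, was at least 18.6-fold higher in the control, and LSU1, with 27 counts and 0, at least 6.12-fold higher. The calls of LSU1 and GGCT2;1 rest on few reads, that of LSU1 being lost without either dark library or without replicate 1 of the control and under DESeq2's test, and that of GGCT2;1 without replicate 2 of either group.

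**Figure D2:**
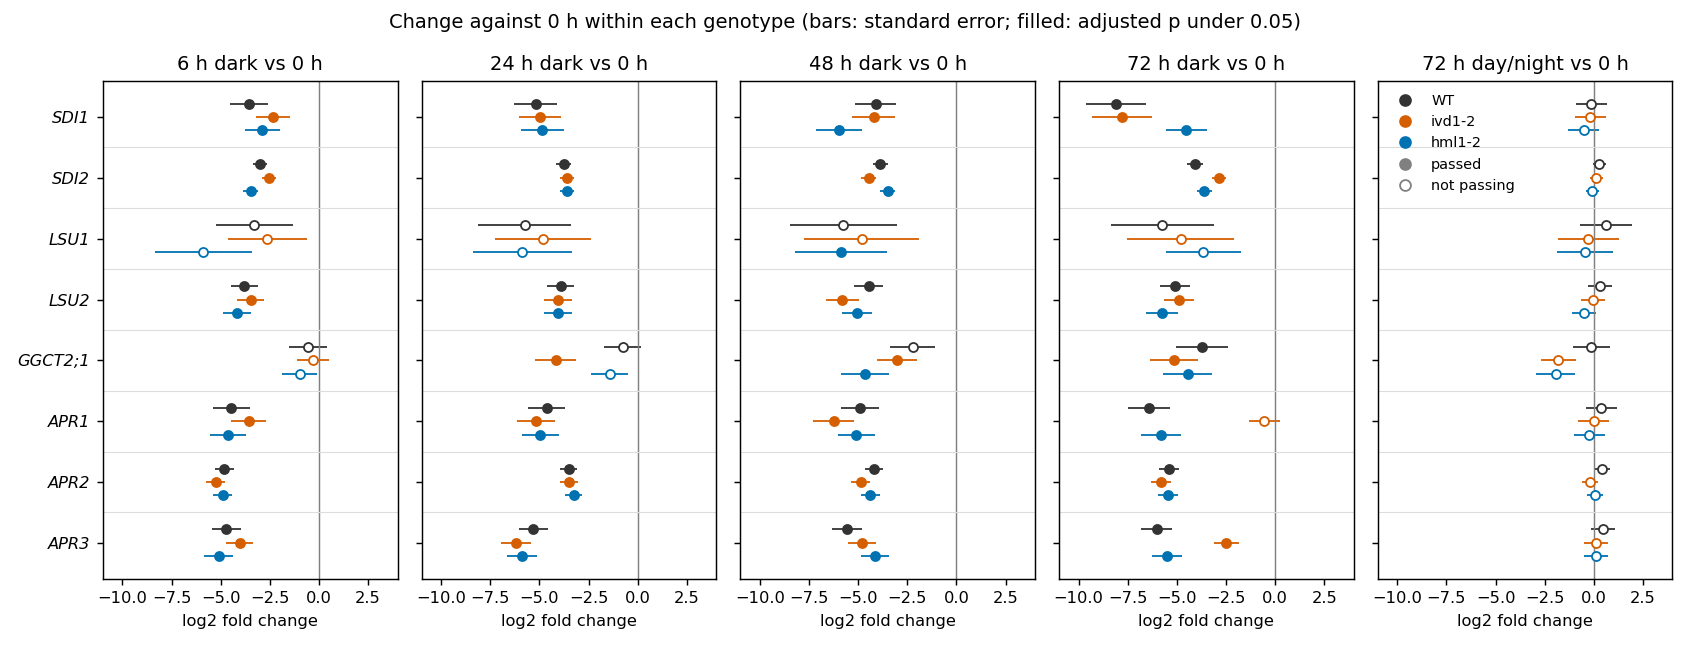
Log2 fold change against 0 h (horizontal axis) of the 8 genes tested, in WT, ivd1-2 and hml1-2, with bars for the standard error and filled points for adjusted p under 0.05. All points of the 4 dark panels lie below 0, and all points of the day and night control are hollow.

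The mutants responded in the same direction. In ivd1-2, 6, 7, 7 and 6 of the 8 genes had fallen after 6, 24, 48 and 72 h of darkness against 0 h, where 20.6, 23.3, 30.6 and 32.7% of all genes fell. In hml1-2 the counts were 6, 6, 8 and 7, where 19.8, 25.9, 30.5 and 33.6% of all genes fell. Several of these calls rest on few reads. That of LSU1 in hml1-2 at 48 h was lost with each of the 4 libraries left out (adjusted p = 0.052 to 0.21) and under DESeq2's test (adjusted p = 0.41), that of GGCT2;1 in hml1-2 at 72 h without replicate 1 of the dark group (adjusted p = 0.061), and that of GGCT2;1 in ivd1-2 at 48 h in 2 of 4 such cases. APR1 was not called in ivd1-2 at 72 h, and without replicate 1 of that dark group its log2 change against 0 h was -5.61. After 6 h APR2 was at 14.9 and 8.05 CPM in ivd1-2 and at 17.0 and 12.9 CPM in hml1-2, with log2 changes of -5.25 ± 0.49 (adjusted p = 4.7e-08) and -4.90 ± 0.48 (adjusted p = 8.1e-08). The calls of SDI1 after 6 h were lost when single libraries were left out, in ivd1-2 either 0 h library or replicate 1 of the 6 h group and in hml1-2 replicate 1 of either group. Against the day and night control, 6 of the 8 genes had fallen at 72 h in ivd1-2 and 6 in hml1-2, where 32.1 and 32.5% of all genes fell. In ivd1-2 APR1 was not among them (log2 change -0.57 ± 0.79, adjusted p = 0.54), and without replicate 1 of ivd1-2 at 72 h its log2 change was -5.62. The call of GGCT2;1 in ivd1-2 was lost in 3 of 4 cases with a library left out, all but that without replicate 1 in darkness (adjusted p = 0.066 to 0.14), and under DESeq2's test (adjusted p = 0.062).

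Over all genotypes, the 12 libraries of 0 h and the day and night control and the 24 dark libraries were separate for 5 genes. SDI2 ran from 11.6 through a median of 14.96 to 20.3 CPM in the former and from 0.494 through 1.25 to 2.99 CPM in the latter. LSU2 ran from 6.36 through 9.94 to 16.3 CPM and from 0.0860 through 0.432 to 1.23 CPM. APR2 ran from 324.6 through 461.7 to 657.5 CPM and from 5.16 through 17.0 to 48.1 CPM. The lowest library of the former was thus several times above the highest dark one in each of these genes. APR3 ranged from 35.5 to 77.8 CPM against 0.504 to 16.1 CPM, and SDI1 from 0.641 to 1.55 CPM against 0 to 0.305 CPM, with 9 dark libraries at 0 counts. In APR1, 1 dark library, replicate 1 of ivd1-2 at 72 h, exceeded the lowest of the 12. In GGCT2;1, 10 of the 24 dark libraries did. LSU1 had 75 counts in the 12 libraries and 3 in the 24 dark ones, 21 of which were at 0.

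The order of the group means followed the same divide. In SDI2, LSU2, APR1, APR2, APR3 and SDI1 the 6 groups of 0 h and the day and night control held ranks 1 to 6 of 18, and most neighbours within each block overlapped in range. In APR2 the WT control was highest with 629.5 CPM and its range stood clear of the next group, hml1-2 in the control with 469.3 CPM. The lowest of the 6, ivd1-2 in the control with 384.7 CPM, stood clear of the next, hml1-2 at 24 h of darkness with 46.7 CPM.

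GGCT2;1, which degrades glutathione, was not called after 6 h of darkness in any genotype. It ran from 0.159 through a median of 0.454 to 1.19 CPM in the 6 libraries of 0 h, and from 0.0533 through 0.345 to 0.737 CPM in the 6 libraries of 6 h of darkness. After 24 h it ran from 0.0288 through 0.0895 to 0.266 CPM, and after 72 h from 0 to 0.0412 CPM with 3 of 6 libraries at 0. Between 0 and 6 h these ranges overlapped widely. In ivd1-2, where it was at 0.737 and 0.519 CPM after 6 h and 0.0288 and 0.0480 CPM after 24 h, the step passed (log2 change -3.87 ± 1.04, adjusted p = 0.013, with 6.22% of all genes falling), but not with replicate 1 or 2 of the 24 h group or replicate 1 of the 6 h group removed (adjusted p = 0.11, 0.080 and 0.060).

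Of the 8 genes tested, APR2 alone rose from 6 to 24 h of darkness in all 3 genotypes, by the calls below. It ran from 8.05 through 14.8 to 18.4 CPM in the 6 libraries of 6 h and from 36.4 through 43.0 to 48.1 CPM in the 6 libraries of 24 h, so the groups did not overlap. The log2 change from 6 to 24 h was 1.31 ± 0.42 in WT (adjusted p = 0.034), 1.75 ± 0.42 in ivd1-2 (adjusted p = 0.0062) and 1.64 ± 0.42 in hml1-2 (adjusted p = 0.0096). APR2 was 1 of 8 genes, and of all genes tested 9.27, 11.5 and 8.5% rose in these steps, so such a rise was not particular to it. By the labels the hour of the day also changes in this step and cannot be told apart from the time in darkness. With single libraries left out the rise in WT was 1.12 to 1.48 and no longer passed in any of the 4 cases, in ivd1-2 it failed with replicate 1 of the 24 h group or replicate 2 of the 6 h group removed (adjusted p = 0.061 and 0.13), and in hml1-2 with the same replicates removed (adjusted p = 0.054 and 0.11). APR1 and APR3 were not called higher in this step in any genotype. In ivd1-2 APR3 fell, from 3.84 and 2.20 to 0.863 and 0.504 CPM (log2 change -2.15 ± 0.70, adjusted p = 0.038), as did SDI2 (log2 change -1.06 ± 0.35, adjusted p = 0.040), and each of these 2 calls was lost in 3 of the 4 cases with a library left out, all but that without replicate 2 at 6 h for APR3 and without replicate 1 at 6 h for SDI2. After 24 h APR2 declined to medians of 21.6 CPM at 48 h and 7.96 CPM at 72 h. From 24 to 48 h edgeR called 0 of the 8 genes in WT, ivd1-2 and hml1-2, where 2.53, 5.84 and 4.84% of all genes were called, with 0, 2 and 3 of the 8 at an unadjusted p under 0.05 and 0, 1 and 0 called by DESeq2's test, the 1 being APR2 in ivd1-2 (log2 change -1.30, adjusted p = 0.022). From 48 to 72 h it called 0 in WT and hml1-2, where 0.072 and 0.385% of all genes were called, with 1 and 1 at an unadjusted p under 0.05 and 0 and 0 by DESeq2's test.

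The share of APR2 in the summed CPM of the 3 APR genes moved accordingly. Its median over 6 libraries was 82.6% at 0 h (78.4 to 86.0%), 78.7% after 6 h (55.3 to 84.4%), 95.2% after 24 h (90.3 to 95.9%), 87.1% after 48 h (80.4 to 91.9%), 82.3% after 72 h (7.60 to 91.7%) and 82.0% in the day and night control (79.1 to 85.4%). At 24 h every library lay above the highest library of 0 h, of 6 h and of the control. After 6 h the ivd1-2 libraries, at 69.5% (95% exact binomial interval 66.0 to 72.9%) and 55.3% (50.8 to 59.9%), lay below the 4 libraries of WT and hml1-2, at 78.1 to 84.4%. These intervals cover counting error only. The salicylate sums of those ivd1-2 libraries were 359.7 and 1174 CPM, against 56.7 to 105.9 CPM in the other 4, and their part in the share was not tested.

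**Figure D3:**
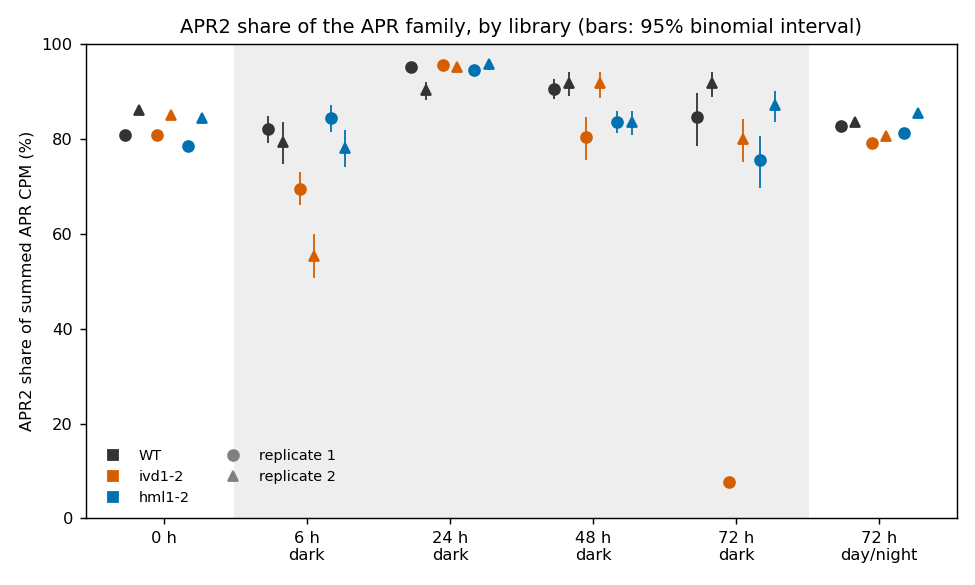
Share of APR2 in the summed CPM of APR1, APR2 and APR3 (percent) in each library by condition, with bars for the 95% exact binomial interval. The 6 libraries of 24 h of darkness lie at 90.3 to 95.9%, and replicate 1 of ivd1-2 at 72 h lies at 7.60%.

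In the comparison of mutants with WT, a single group differed. At 0 h, after 6, 24 and 48 h and in the day and night control, edgeR called 0 of the 8 genes in ivd1-2 and in hml1-2, and in hml1-2 also 0 at 72 h, with 0 of the 8 at an unadjusted p under 0.05 and 0 called by DESeq2's test in each. The share of all genes called in these comparisons was, in ivd1-2, 0.0103% at 0 h, 0.0154% after 6 h, 0.488% after 24 h, 3.71% after 48 h and 0.0154% in the control. In hml1-2 it was 0.0103% after 24 h and in the control and 0.00514% in the other 4 conditions. At 72 h of darkness 2 of the 8 rose in ivd1-2 against WT, where 12.6% of all genes rose. APR1 was at 55.7 and 0.853 CPM in ivd1-2 and at 0.371 and 0.628 CPM in WT, a log2 change of 5.81 ± 1.04 (adjusted p = 0.00082). APR3 was at 16.1 and 1.59 CPM and at 0.742 and 0.825 CPM, a log2 change of 3.49 ± 0.72 (adjusted p = 0.0023). Both ivd1-2 libraries thus lay above both WT libraries, but the first value of each pair was that of the library with high salicylate genes. Without it, APR1 had a log2 change of 0.76 (adjusted p = 0.49) and APR3 of 1.02 (adjusted p = 0.38).

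APR2 was not called in this comparison. It was at 5.90 and 9.77 CPM in ivd1-2 and 6.15 and 16.1 CPM in WT at 72 h (log2 change -0.51 ± 0.42, adjusted p = 0.41), and replicate 1 of ivd1-2 held 1651 reads of APR1 against 175 of APR2. In that library APR1 was as abundant as in the 12 libraries of 0 h and the control, which ran from 30.1 to 59.3 CPM, while APR3 at 16.1 CPM was below their lowest, 35.5 CPM. SDI2 was at 2.53 and 1.09 CPM in ivd1-2 and 0.784 and 1.02 CPM in WT (log2 change 1.00 ± 0.37, adjusted p = 0.052). It passed with DESeq2 size factors (adjusted p = 0.036), with DESeq2's test (adjusted p = 0.034) and with a mean of at least 5 CPM required (adjusted p = 0.028). Its higher ivd1-2 level, 2.53 CPM, was that of replicate 1, the library with high salicylate genes. The other, 1.09 CPM, lay close to the higher WT level, 1.02 CPM. Without replicate 2 of ivd1-2 the log2 change of SDI2 was 1.48. LSU2 was at 0.506 and 0.116 CPM, SDI1 and LSU1 had 0 counts in both ivd1-2 and both WT libraries, and 3 of the 11 reads of BGLU28 came from replicate 1 of ivd1-2.

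Against hml1-2 at 72 h, APR1 and APR3 rose in ivd1-2 by log2 changes of 5.06 ± 0.98 (adjusted p = 0.0016) and 2.996 ± 0.69 (adjusted p = 0.0051), where 11.2% of all genes rose. Without replicate 1 of ivd1-2 these were 0.02 (adjusted p = 1) and 0.52 (adjusted p = 0.71), and APR3 also failed without replicate 1 of hml1-2 (adjusted p = 0.065). The change from the day and night control to 72 h of darkness also differed between ivd1-2 and WT, by 6.25 ± 1.29 on the log2 scale for APR1 (adjusted p = 0.0097) and 3.88 ± 0.93 for APR3 (adjusted p = 0.023), where 2.62% of all genes differed upward. Taken from 0 h instead, the differences were 5.87 ± 1.28 (adjusted p = 0.013) and 3.54 ± 0.93 (adjusted p = 0.035), where 2.46% did. With 8 libraries left out in turn, these calls from 0 h were lost in 5 cases for APR1 and 7 for APR3. The call from the control was also lost for APR1 without replicate 1 of WT at 72 h or of ivd1-2 in the control, and APR3 lost it in 7 of 8 cases. Without replicate 1 of ivd1-2 at 72 h the differences from the control were 1.20 (adjusted p = 0.35) and 1.4002 (adjusted p = 0.34). From 48 to 72 h within ivd1-2, APR1, APR3 and SDI2 rose by log2 changes of 5.68 ± 1.04 (adjusted p = 0.0076), 2.32 ± 0.67 (adjusted p = 0.039) and 1.60 ± 0.38 (adjusted p = 0.018), beside 5.11% of all genes. Without that library the changes were 0.63, -0.15 and 0.86 and none passed, and all 3 calls were also lost without replicate 1 or replicate 2 of the 48 h group. Averaged over the 6 conditions, edgeR called 0 of the 8 in ivd1-2 against WT, where 16.5% of all genes were called, with 2 of the 8, APR2 and APR3, at an unadjusted p under 0.05 and 1, APR2, called by DESeq2's test (log2 change -0.45, adjusted p = 0.038). In the average of hml1-2 against WT it called 0, where 0.0257% of all genes were called, with 0 at an unadjusted p under 0.05 and 0 by DESeq2's test.

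**Figure D4:**
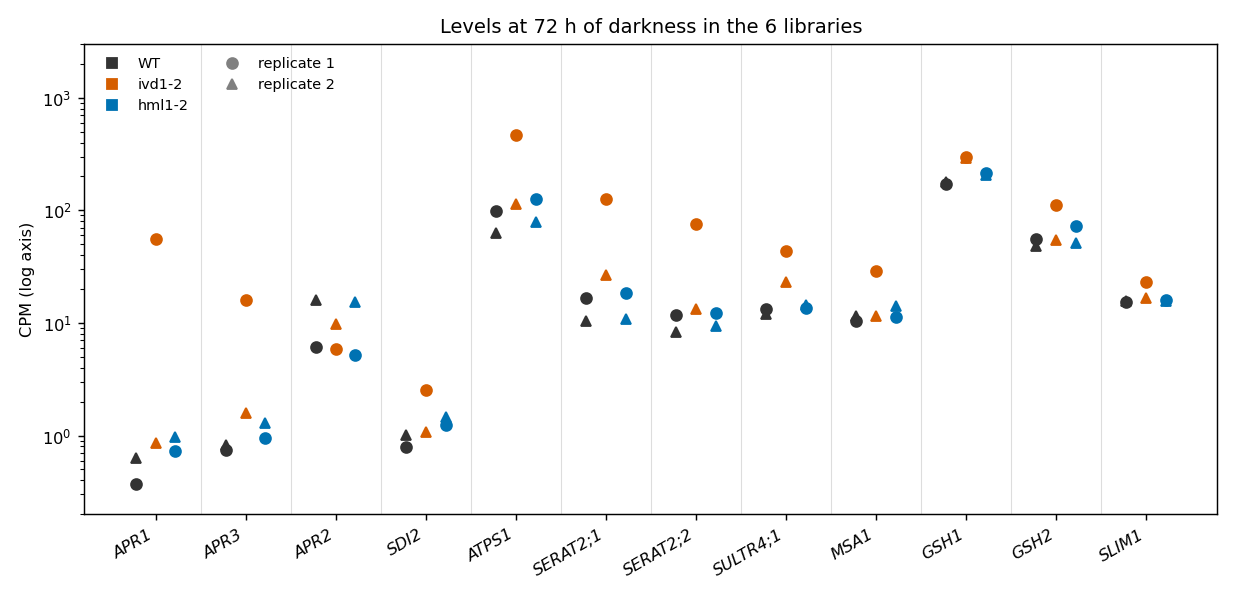
CPM (log axis) at 72 h of darkness in the 6 libraries of 4 of the genes and of the 8 other sulfur genes that rose in ivd1-2 against WT. The circle of ivd1-2, replicate 1, is the highest point for APR1, APR3 and SDI2 and not for APR2.

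The other genes of the pathway were followed as 5 lists of 44 genes, of which 40 were tested. In WT at 72 h of darkness against the control, 25 of the 40 fell and 6 rose, where 31.7% of all genes fell and 31.9% rose, and the median log2 change was -1.52 beside 0.01 over all genes. The lists below are read against the same shares. Among genes of sulfate activation and sulfite use, 7 of 10 fell and 2 rose. SIR, the sulfite reductase next to the APR enzymes, was at 421.9 and 415.4 CPM in the control and at 49.9 and 62.3 CPM in darkness (log2 change -2.90 ± 0.19, adjusted p = 7.3e-11). ATPS2, an ATP sulfurylase, was at 122.9 and 131.5 CPM and then at 17.3 and 23.0 CPM (log2 change -2.66 ± 0.30, adjusted p = 1.2e-07). The changes of SIR and ATPS2 lay nearer 0 than those of the 3 APR genes, a difference that was not tested. SOX, the peroxisomal sulfite oxidase that turns sulfite back to sulfate, rose from 114.9 and 116.1 to 265.9 and 338.5 CPM (log2 change 1.39 ± 0.21, adjusted p = 8.8e-06), and ATPS4, another ATP sulfurylase, rose from 55.4 and 39.4 to 208.0 and 134.2 CPM (log2 change 1.85 ± 0.35, adjusted p = 0.00011).

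Of the sulfate transporters 5 of 9 tested fell and 0 rose, and of the cysteine and glutathione genes 5 of 10 fell and 3 rose, among them SERAT3;1, a serine acetyltransferase, from 12.6 and 16.1 to 22.8 and 36.5 CPM (log2 change 1.05 ± 0.26, adjusted p = 0.0013). Of 6 regulators tested, 5 fell and 0 rose. MYB28, the factor of aliphatic glucosinolate synthesis that SDI1 represses, went from 43.0 and 46.6 to 1.07 and 1.85 CPM (log2 change -4.93 ± 0.57, adjusted p = 2.2e-07). Of the 5 other sulfur deficiency genes 3 fell and 1 rose. After 6 h of darkness 22 of the 40 pathway genes had already fallen and 4 had risen against 0 h in WT, where 19.2% of all genes fell and 21% rose, with a median log2 change of -1.25. Over the other settings and left-out libraries 15 to 25 fell and 2 to 5 rose, the lowest values, 15 and 2, being those without replicate 1 at 0 h or replicate 2 after 6 h.

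**Figure D5:**
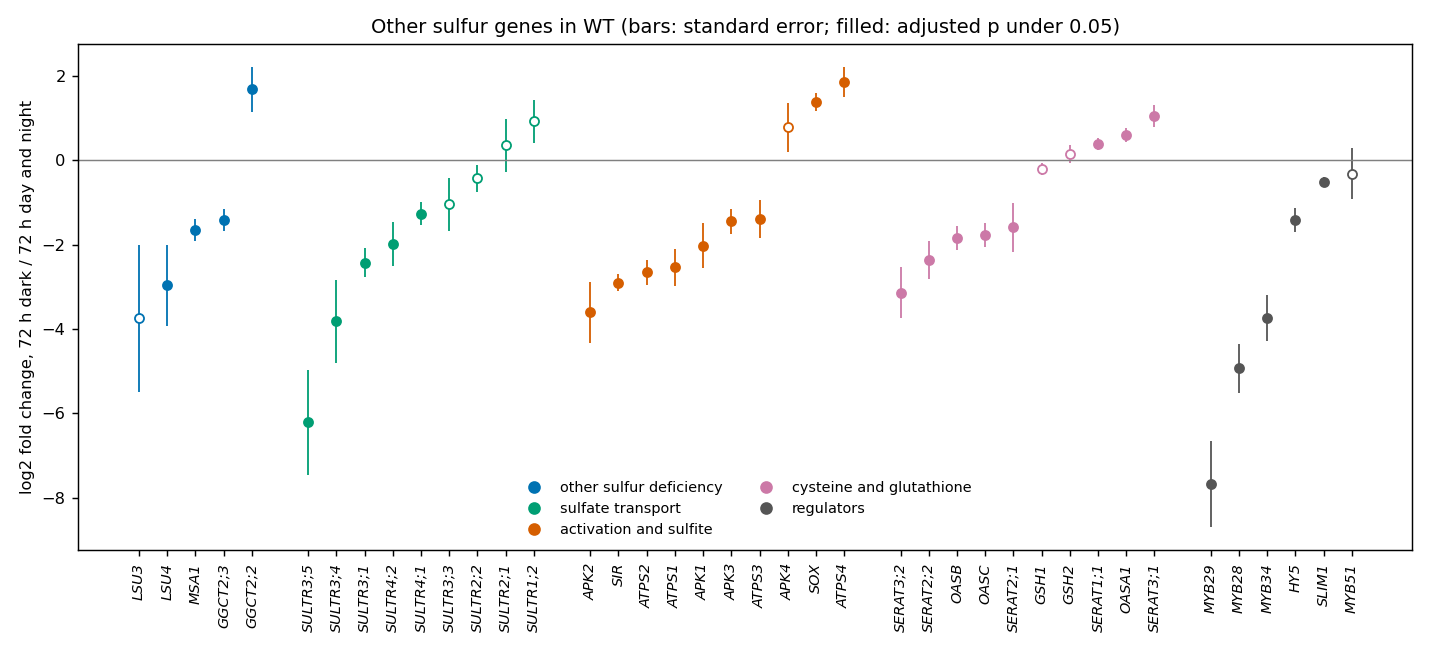
Log2 fold change of the 40 other sulfur genes tested in WT at 72 h of darkness against the day and night control, grouped by list, with bars for the standard error and filled points for adjusted p under 0.05. SIR, ATPS2 and MYB28 lie below 0, and SOX and ATPS4 lie above 0.

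In ivd1-2 against WT at 72 h, 8 of the 40 pathway genes rose and 3 fell, where 12.6% of all genes rose and 10.7% fell. Both counts were higher without replicate 2 of ivd1-2 and lower without replicate 1, the library with high salicylate genes. The number called over all genes moved likewise. SULTR4;1, which releases sulfate from the vacuole, was at 43.5 and 22.9 CPM in ivd1-2 and at 13.3 and 12.1 CPM in WT (log2 change 1.39 ± 0.27, adjusted p = 0.0015), and 0.85 without that library (adjusted p = 0.071). SERAT2;2, a mitochondrial serine acetyltransferase, was at 74.9 and 13.2 against 11.7 and 8.29 CPM (log2 change 2.14 ± 0.44, adjusted p = 0.0022), and 0.40 without it (adjusted p = 0.43). GSH1, which makes gamma-glutamylcysteine, was at 296.0 and 288.6 against 170.9 and 179.9 CPM (log2 change 0.74 ± 0.15, adjusted p = 0.0017) and 0.72 without it (adjusted p = 0.018). SULTR3;1, a plastid sulfate transporter, was at 6.94 and 3.53 against 8.58 and 14.1 CPM (log2 change -1.11 ± 0.34, adjusted p = 0.022) and -1.68 without it (adjusted p = 0.018), but -0.70 without replicate 2 of ivd1-2 (adjusted p = 0.14). Both ivd1-2 libraries lay above both WT libraries for GSH1 and below both for SULTR3;1.

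The profiles over the 36 libraries were compared by the root mean square difference of log2 CPM, each gene centred on its own mean. Among the 8 genes the closest pair was SDI1 and SDI2 (0.66), followed by APR1 and APR3 (0.79). Distances of SDI1 carry little weight, since it had 374 counts in all and 9 of the 24 dark libraries at 0. Among 16484 other genes averaging 1 CPM or more, the nearest to SDI2 was UPM1, which makes the precursor of siroheme, the cofactor of sulfite reductase (0.48). The nearest to SDI1 was DIT2.1, a plastid dicarboxylate transporter (0.46). The nearest to LSU2 was ACP4, an acyl carrier protein of fatty acid synthesis (0.62), and to APR2 SDR1 (AT3G61220), a short-chain dehydrogenase (0.54). The nearest to APR1 was AO, the L-aspartate oxidase of NAD synthesis (0.82), and to APR3 BBX32, a B-box protein (0.73). For LSU1 it was MIND, a plastid division protein (0.59), and for GGCT2;1 PAP10, a purple acid phosphatase (0.68), both with little weight since these genes had few counts. The distances share the libraries and the fall in darkness, so they describe profiles and carry no test.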

How the data were processed

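The deposited values are raw counts of reads per locus, 1 table per library, made by the authors from total RNA of leaves with stranded libraries. Per the submitters' processing notes, Trimmomatic 0.30, TopHat 1.4.1, SAMtools 0.1.19, Cuffdiff 2.1.1 and HTSeq were used with TAIR10, in an order and with settings not given in the sources used here. Rows that name no gene held 2.37 to 3.53% of a library and were left out.

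Counts were tested with edgeR 4.0.16 (quasi-likelihood test, TMM scaling, R 4.3.3) in 1 fit of the 18 groups with 18 residual degrees of freedom. Genes passed filterByExpr (minimum count 10, minimum total 15), which kept 19457, and p-values were adjusted by Benjamini-Hochberg over all of them within each of 53 comparisons, with a threshold of 0.05. CPM were computed from the counts with TMM scaling, and profiles used log2 CPM with a prior count of 2. The fit was tested on simulated data for WT at 72 h of darkness against the control. Changes were planted only in genes averaging at least 1 CPM, so they did not cover SDI1, LSU1 and GGCT2;1.

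The members and lists were chosen with earlier results of these data known. Other pathway genes were named as up to 3 rising and 3 falling with the smallest p and at least 5 CPM in the higher group, in WT at 72 h of darkness against the control and in each mutant against WT at 72 h. Alternatives were DESeq2 1.42.0 size factors and test, other filters, a replicate block and each library left out. All replicates differed beyond sampling noise. One root marker is not reported here.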

Additional observations from a re-analysis of the deposited data

Results flagged for a closer look

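The change to 72 h of darkness differed between ivd1-2 and WT for APR1 and APR3, by the test of the difference itself with edgeR. Against the day and night control the difference was 6.25 on the log2 scale for APR1 (adjusted p = 0.0097) and 3.88 for APR3 (adjusted p = 0.023). Against 0 h it was 5.87 for APR1 (adjusted p = 0.013) and 3.54 for APR3 (adjusted p = 0.035), where 2.46% of all genes differed upward. Without replicate 1 of ivd1-2 at 72 h, the library with 2931 CPM of salicylate defence genes, the differences were 1.20 and 1.4002 against the control and 0.82 and 1.06 against 0 h, and none passed. The part of the salicylate genes in this result was not tested.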

How the results depend on the processing

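Of 115 called results on single genes, 111 held under every setting that kept all libraries and 88 with each library left out in turn. With a mean of at least 5 CPM required, fewer of the genes and only 74 of the 115 called results were tested. A result not tested there counts among the 111 unless another setting lost it. The number called against 0 h was then 4 in WT at 72 h, 4, 4 and 3 in ivd1-2 at 24, 48 and 72 h, and 4 and 4 in hml1-2 at 48 and 72 h. Against the control it was 4 in WT and 3 in ivd1-2. DESeq2's test called 1 gene in the average of ivd1-2 against WT and 1 from 24 to 48 h in ivd1-2. The replicate numbers were not shown to pair the libraries (correlations of deviations -0.33 to 0.85 over 153 pairs of groups, median 0.27, 120 over 0.1). A replicate block kept all 115 calls and added 8, LSU1 against 0 h in WT at 24, 48 and 72 h and in hml1-2 at 6, 24 and 72 h (adjusted p = 0.020 to 0.042), SDI2 in ivd1-2 against WT at 72 h (adjusted p = 0.039) and APR2 from 24 to 48 h in ivd1-2 (log2 change -1.38, adjusted p = 0.040), the 1 gene called in that step.

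With libraries left out in turn, the number of genes called ranged from 0 to 3 in the average of ivd1-2 against WT, in the 2 differences in response at 72 h between ivd1-2 and WT, and in ivd1-2 against WT and against hml1-2 at 72 h. It ranged from 0 to 2 in the average of ivd1-2 against hml1-2. From 6 to 24 h it was 0 in all 4 cases in WT, 0 to 2 in ivd1-2 and 0 to 1 in hml1-2, and from 48 to 72 h in ivd1-2 it was 0 to 3. In that last step APR3 changed sign without replicate 1 of ivd1-2 at 72 h, to -0.15, within a range of -0.15 to 3.36, and the cause was not tested. One count equalled 0.0204 to 0.0776 CPM, which limits LSU1, GGCT2;1, SDI1 and BGLU28.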
